A study of Mus musculus with 8 samples.

Results

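Conventional type 1 dendritic cells (cDC1) of the colonic lamina propria were examined in a droplet data set that had been sorted for monocytes and macrophages. A cell was taken as cDC1 when it held at least 2 unique molecular identifiers (UMIs, 1 per captured transcript) of Xcr1 and Clec9a together, none of Cd3d, Cd3e and Cd3g, and under 60 UMIs of C1qa, C1qb and C1qc per 10000 of its UMIs. Of 3213 cells that passed the filters on depth, genes, mitochondrial share and hemoglobin, 209 were cDC1 (6.50%), with 175 of 1863 in control mice and 34 of 1350 in cKO mice. The cells were thus selected on their UMIs of Xcr1, Clec9a, Cd3 and C1q genes, and levels of these genes describe the choice and are given with no test.

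All 8 animals were female CD98ΔCX3CR1 mice, 6 to 12 weeks old, that carried a tamoxifen-inducible Cre recombinase with a YFP reporter under the Cx3cr1 promoter and a floxed Slc3a2, the gene of CD98 heavy chain. Control mice (n = 4, replicates 1 to 4) received the carrier corn oil and cKO mice (n = 4, replicates 5 to 8) received tamoxifen, 100 µl of a 20 mg/ml solution on each of 5 days, with the readout on day 7. Tamoxifen and the deletion came together and cannot be told apart. CD11b+ cells with CCR2 or CD64 on their surface were sorted from each mouse, and each mouse was captured in a well of its own with a 3′ kit aimed at 3000 cells.

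cDC1 are the dendritic cells that take up dying cells and present their antigens to CD8 T cells on MHC class I, which is called cross-presentation. They arise from FLT3-dependent precursors under the transcription factors IRF8 and BATF3, and in the gut they carry the integrin CD103 and the chemokine receptor XCR1, whose ligand XCL1 comes from T and NK cells. Type 2 dendritic cells (cDC2), which express SIRPα and CD11b, favour presentation to CD4 T cells on MHC class II. Neither class is a macrophage, and both were minor companions of the sorted cells.

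The members carried the genes that textbook cDC1 carry. Counts were summed over the cDC1 of a mouse and are given as CPM, counts per 1000000 UMIs of that sum. Xcr1 lay at 372, 396, 378 and 382 CPM in control replicates 1 to 4 and at 183, 257, 279 and 309 CPM in cKO replicates 5 to 8, against 0.825 to 8.76 CPM in the other cells of the same mice. Clec9a, which binds the actin of dead cells, lay between 80.5 and 234 CPM over the 8 mice. Of the 209 cells, 144 held both genes, 50 held Xcr1 alone and 15 held Clec9a alone. These levels follow from the rule.

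Itgae, Cd24a and Flt3 had no part in the rule and were high in every mouse. Itgae, the alpha chain of CD103, lay at 179, 160, 197 and 203 CPM in control cDC1 and at 204, 145, 181 and 173 CPM in cKO cDC1, with 74.6% of the cells holding a UMI against 1.93% of all other cells. Cd24a, a surface glycoprotein of cDC1, ranged from 652 to 1068 CPM and was found in 98.6% of the cells. Flt3, the receptor of the growth factor FLT3 ligand, ranged from 99.0 to 203 CPM and was found in 84.7% of cDC1 against 39.0% of cDC2 and 1.08% of C1q-high macrophages. cDC1 were sequenced deeper than the rest, with a median of 11682 UMIs per cell against 4742.5 in the other cells. Shares were therefore also taken after each cell was thinned to 2000 UMIs. Cells with fewer UMIs were left out of these shares, which kept 206 of 209 cDC1, 162 of 164 cDC2 and 733 of 1014 macrophages. The thinned shares of macrophages thus describe the deeper cells only. Thinned, Itgae remained in 25.7% of cDC1, 0.617% of cDC2 and 0.136% of macrophages, and Flt3 in 26.7%, 18.5% and 0.819%.

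The genes that stood highest in control cDC1 over all other control cells, with 10 CPM added to both, were Xcr1 (24.8-fold), Clec9a (9.88-fold), Itgae (9.80-fold), Gcsam (9.74-fold), Cd24a (8.15-fold), Btla (7.75-fold), Tnni2 (7.44-fold), Rtl8b (7.41-fold), Gpr141b (7.29-fold) and Rtl8a (7.23-fold). Btla is an inhibitory receptor of the immunoglobulin family and Tnni2 is a troponin subunit. Gpr141b (chromosome 13, 19727426 to 19732951, minus strand of GRCm38) is annotated as a lincRNA, not as coding. Next in the order came genes of cDC1 function, among them Tlr3, the endosomal receptor of double-stranded RNA (108 CPM against 8.41 CPM in other control cells), Irf8 (2317 against 362 CPM), the lysosomal amidase Naaa (1798 against 298 CPM) and Wdfy4, which cross-presentation requires (236 against 40.8 CPM). Cst3, the protease inhibitor cystatin C, was the most abundant of them with 29458 CPM against 4407 CPM.

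In cKO mice the same 10 leading genes were 7.66-fold to 24.8-fold higher in cDC1 than in the other cells. A description of this kind comes from the same cells that the rule picked, and it was not tested. Ube2c, Cks1b and Hist1h2ap, genes of dividing cells, were also among the leading 30.

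**Figure D1:**
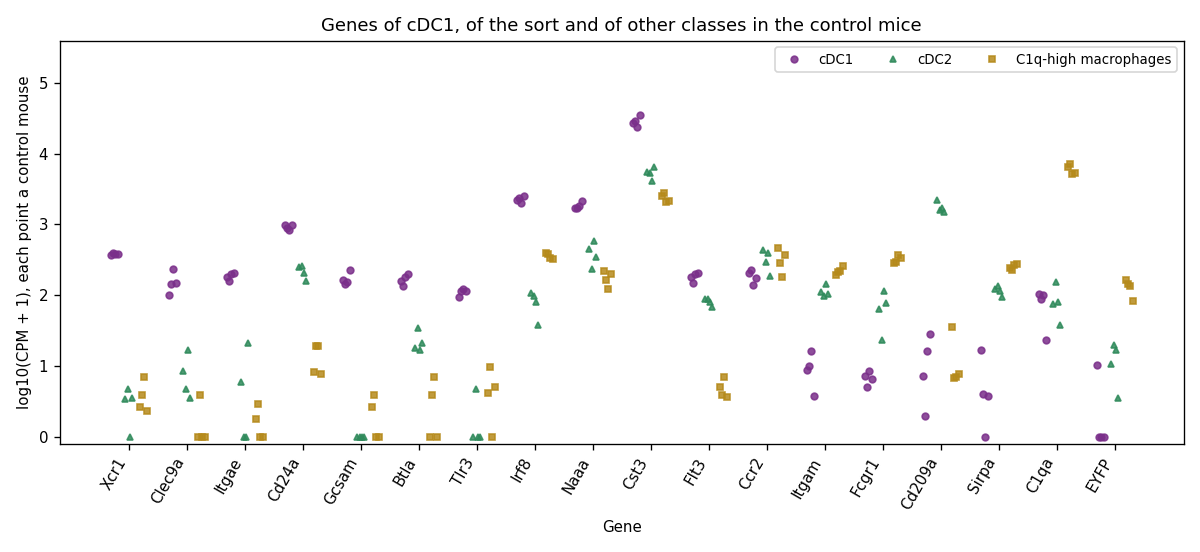
Levels of 18 genes in the summed cDC1 (circles), cDC2 (triangles) and C1q-high macrophages (squares) of the 4 control mice, as log10 of CPM plus 1. Xcr1, Clec9a, Itgae, Gcsam, Btla and Tlr3 stand far above the other classes in cDC1, while Itgam and Fcgr1 are lowest in cDC1 and Ccr2 is present in all 3 classes.

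The gate of the sort left a mixed trace in these cells. Itgam, the alpha chain of CD11b, lay between 0 and 24.8 CPM in cDC1 and between 142 and 235 CPM in the other cells of the same mice, and after thinning 0.971% of cDC1 held a UMI of it against 17.3% of cDC2 and 33.3% of macrophages. Fcgr1, which encodes CD64, was found in 9 of 175 control cDC1 (5.14%, exact 95% interval 2.38 to 9.54%) and in 6 of 34 cKO cDC1 (17.6%, 6.76 to 34.5%), against 47.4% and 58.3% of the other cells. Ccr2, the receptor of CCL2, was the gate gene that cDC1 did hold, at 202, 228, 136 and 173 CPM in control mice and 81.6, 33.0, 32.9 and 180 CPM in cKO mice. Replicate 8 of the cKO mice overlapped the controls in Ccr2, while the other cKO mice lay below them. In the edgeR quasi-likelihood test the log2 fold change of Ccr2 was -0.85 (SE 0.43) with an adjusted p of 0.946.

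Few UMIs came from the driver of the Cre recombinase and its reporter in cDC1. Cx3cr1 was found in 2 of 175 control cDC1 (1.14%) and in 0 of 34 cKO cDC1, against 4.09% and 1.29% of the other cells. The EYFP reporter was found in 3 of 175 control cDC1 (1.71%, exact 95% interval 0.355 to 4.93%), all in replicate 1, against 21.9% of the other control cells. It was found in 0 of 34 cKO cDC1, a count that leaves room for 8.82% of cells with a UMI, where the other cKO cells held 8.21%, so that a difference in cKO mice was not detectable with so few cells. In the C1q-high macrophages of the same mice EYFP lay at 163, 142, 133 and 80.8 CPM in control mice and at 99.4, 81.2, 51.5 and 82.2 CPM in cKO mice. After thinning, EYFP was found in 0 of 206 cDC1, in 1.23% of cDC2 and in 18.6% of macrophages. Intervals and limits cover counting error only.

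Slc3a2 (chromosome 19, 8706882 to 8723369, minus strand of GRCm38), the floxed gene, lay at 219, 193, 181 and 209 CPM in control cDC1 and at 40.8, 125, 197 and 161 CPM in cKO cDC1. Replicate 7 of the cKO mice lay within the control range and the other cKO mice lay below it. The log2 fold change over the mice tested was -0.52 (SE 0.24, unadjusted p = 0.0460, adjusted p = 0.939 in edgeR), so that the difference did not pass the threshold. A 3′ tag counts the end of the transcript, which the excised exon does not hold, and the level does not check the deletion.

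Cells left out at the edge of the rule lay between the members and the other cells in genes of cDC1. Among cells that met its other conditions, 71 held exactly 1 UMI of Xcr1 and Clec9a and were left out, while 36 members held exactly 2. The cells left out were 54 of control and 17 of cKO mice. Irf8 lay at 1161 CPM in the cells with 1 UMI and 2143 CPM in those with 2, against 235 CPM in cells with no UMI of either gene. Cst3 lay at 19729, 28288 and 3553 CPM and Cd24a at 579, 1051 and 85.1 CPM in the same order. Some cDC1 may thus have been left out, and the rule for cDC2 allowed 1 such UMI. Cd209a, the marker that defined cDC2 here, lay at 333 CPM with 1 UMI and 20.5 CPM with 2. Of the cells with 2 or more UMIs, 4 were left out for Cd3 and 1 for C1q, and a single member lay between 30 and 60 C1q UMIs per 10000.

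Most markers of other cell types were lower in the members than in the other cells. Summed over the 9 cDC2 markers, cDC1 held 58.2 to 144 CPM in control mice and 19.8 to 183 CPM in cKO mice, where the other cells held 381 to 1224 CPM. The 13 macrophage markers summed to 269 to 1246 CPM and 411 to 856 CPM, with Apoe, C1qb and C1qa highest, against 10109 CPM or more in the other cells of any mouse. The 8 monocyte markers, led by Plac8 and Ccr2, were not low throughout, with 507 to 918 CPM in control cDC1 and 904 to 2562 CPM in cKO cDC1, against 1966 to 3679 CPM and 7627 to 10585 CPM in the other cells of these groups. Of 7 neutrophil markers, S100a9, Cxcr2 and Mmp9 were at 0, and of 9 T and NK cell markers in the table, Cd3d, Cd3e, Cd3g, Nkg7, Ncr1, Gzma and Il7r were at 0. Cd8a, which lymphoid cDC1 express, was the highest of that list and was found in 14.4% of cDC1 and 0.610% of cDC2. The 8 plasmacytoid dendritic cell markers summed to 134 to 329 CPM, led by Bst2, an interferon-induced gene. Stromal markers reached 98.3 CPM, epithelial markers 15.1 CPM and B and plasma cell markers, led by Jchain, 347 CPM. Scrublet called 1 of the 209 cells a doublet, and 26 of 5947 cell barcodes of the table occurred in more than 1 mouse, 2 of them with a cDC1.

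Genes of cycling cells were found in more of the cDC1 than of the other classes, which describes these cells and was not tested. UMIs of both Mki67 and Top2a were found in 37 of 209 cDC1 (17.7%, exact 95% interval 12.8 to 23.6%), in 6.71% of cDC2 (3.40 to 11.7%) and in 0.888% of C1q-high macrophages (0.407 to 1.68%). Depth differed between the classes, with medians of 11682, 7911.5 and 4315.5 UMIs per cell. After thinning to 2000 UMIs, Top2a was found in 12.1%, 3.09% and 1.77% of the cells in the same order, and Mki67 in 7.28%, 2.47% and 2.05%. Ccr7, the receptor by which mature dendritic cells leave for the lymph node, was found in 5 of 175 control cDC1 (2.86%, exact 95% interval 0.934 to 6.54%) and 1 of 34 cKO cDC1, close to the 3.20% and 2.74% of all other cells, which include cDC2 (9.76%). Itgb8, the integrin chain that activates TGF-beta, gave no UMI in any cDC1, which allows up to 1.39 CPM in control cells, and Aldh1a2, an enzyme of retinoic acid synthesis, gave 2 UMIs in all.

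The first comparison asked whether cDC1 took the same share of the sorted cells in control and cKO mice. cDC1 made up 7.60, 15.8, 10.6 and 5.65% of the cells kept in control replicates 1 to 4, from 55, 80, 9 and 31 cDC1. In cKO replicates 5 to 8 they made up 3.61, 3.44, 0.826 and 3.46%, from 3, 12, 4 and 15 cDC1. Every cKO mouse lay below every control mouse. The means were 9.92% ± 4.44 (SD, n = 4) and 2.83% ± 1.34 (SD, n = 4), a difference of -7.08 percentage points or 3.50-fold, with p = 0.0286 in a two-sided exact permutation test, the smallest p that 4 against 4 mice can give (0.0381 adjusted over 4 shares).

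Both classes of dendritic cells were lower together. cDC2, taken as cells with at least 2 UMIs of Cd209a, at most 1 of Xcr1 and Clec9a and the same limits on Cd3 and C1q, made up 7.24% ± 1.24 of the cells in control mice and 2.16% ± 0.737 in cKO mice (SD, n = 4 each), a 3.35-fold difference with the same exact p of 0.0286. Among cDC1 and cDC2 alone, cDC1 made up 38.8 to 72.7% in control mice and 40.0 to 63.2% in cKO mice, and the groups overlapped fully (55.8% ± 14.3 and 54.2% ± 10.3, exact permutation p = 0.943). C1q-high macrophages, with 60 or more C1q UMIs per 10000, made up 36.6% ± 4.70 and 25.9% ± 3.82 (exact permutation p = 0.0286), a 1.41-fold difference. Shares are of the cells sorted and kept, and do not give the number of cells in the colon.

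**Figure D2:**
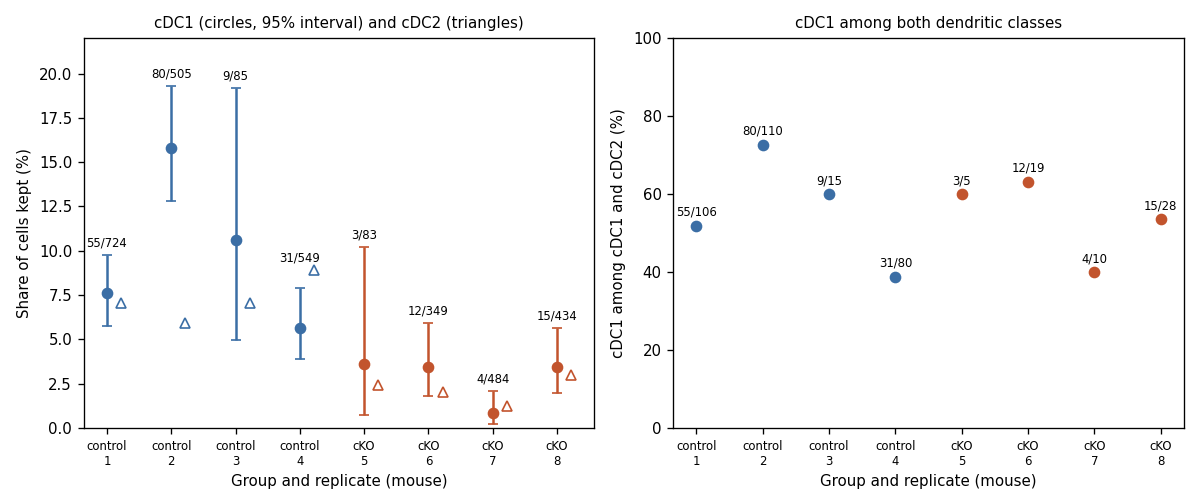
Left, share of cDC1 (circles, with exact 95% binomial intervals and the cells behind them) and of cDC2 (open triangles) among cells kept in each control (blue) and cKO (red) mouse, in percent. Right, percent of cDC1 among cDC1 and cDC2. All 4 cKO mice lie below the 4 control mice at left, and the groups overlap at right.

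Depth was compared beside the share. In mice with at least 5 cDC1, which left out cKO replicates 5 and 7, the median was 11188, 12376.5, 17061 and 12311 UMIs per cDC1 in control mice and 10848 and 10323 in cKO mice. The 2 cKO mice lay below the 4 control mice, with a difference of -2649 UMIs and p = 0.267 in an exact permutation test that could give no less than 0.0667. The cKO replicates left out, with 3 and 4 cDC1, had medians of 18257 and 15476.5 UMIs, which lay above all and above 3 of the control mice, so that depth had no common direction over the 4 cKO mice. When each cell was thinned to 2000 UMIs and 1 UMI of Xcr1 or Clec9a was asked for, the share of cDC1 differed by -8.13 percentage points, again with an exact permutation p of 0.0286. The share rests on the level of Xcr1 itself, which was 382 ± 10.1 CPM in control and 257 ± 53.7 CPM in cKO members (SD, n = 4 each), and its part in the difference was not tested. With the rule loosened to 1 UMI the difference was -9.64 percentage points and with 3 UMIs -6.95, both with an exact permutation p of 0.0286.

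The second comparison asked which genes differed in cDC1 between cKO and control mice. Among 6620 genes, edgeR called 1 higher in cKO (0.0151%) and 0 lower (0%) at an adjusted p under 0.05, in 4 control mice and cKO replicates 6 and 8, since cKO replicates 5 and 7 had fewer than 5 cDC1. DESeq2 called 2 higher and 0 lower. At an unadjusted p under 0.05 there were 172 higher (2.60%) and 175 lower (2.64%), 347 in all (5.24%), against 137 in DESeq2. The gene called was Ifi27l2a (chromosome 12, 103442167 to 103443680, minus strand of GRCm38), a mitochondrial protein gene that interferon induces. It lay at 103, 145, 174 and 151 CPM in control mice and at 389 and 675 CPM in cKO replicates 6 and 8, with 367 and 345 CPM in the replicates outside the fit. All cKO mice lay above all control mice, and the log2 fold change was 1.91 (SE 0.27, adjusted p = 0.0473 in edgeR).

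The call for Ifi27l2a was close to the threshold. It was past it in 9 of 17 alternatives and its log2 fold change ranged from 1.40 to 2.27, all higher in cKO. Without control replicate 1, 2 or 4 the adjusted p in edgeR was 0.274, 0.585 and 0.0743, and without cKO replicate 8 it was 0.314. In the other cells of the same mice Ifi27l2a lay at 1011 ± 167 CPM in control and 4422 ± 357 CPM in cKO mice (SD, n = 4 each), and the part of free RNA from these cells in the cDC1 level was not tested. Reads of near-identical members of its family can be split in counting, so that its level is uncertain.

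The gene next to the threshold, named after its value was seen, was Ly6a, which encodes the interferon-induced surface protein Sca-1. It lay at 26.4, 15.8, 52.9 and 8.24 CPM in control mice and at 81.6, 158, 131 and 155 CPM in cKO mice, without overlap, with a log2 fold change of 2.89 (SE 0.43) and an adjusted p of 0.0525 in edgeR and 0.00665 in DESeq2. Over all genes tested, 8.49% lay higher in cKO without overlap in the mice of the fit. Ly6a was past the threshold in 7 of 17 alternatives. Without 1 mouse its adjusted p in edgeR was 0.0124 when control replicate 3 was left out and between 0.0743 and 0.808 when any other was, with log2 fold changes of 2.65 to 3.12.

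Genes of the interferon response stood mostly above control as a list of 50. Of them, 30 passed the filter on low counts and 28 of these had a log2 fold change above 0, where 47.8% of all genes did. Their median was 0.75 against -0.02 over all genes tested. None passed the adjusted threshold (0.0151% of all genes did). At an unadjusted p under 0.05 in edgeR, 15 were higher (2.60% of all genes were) and 0 lower (2.64% of all genes). In both cKO mice of the fit 13 lay higher than in any control mouse (8.49% of all genes did) and 1 lower (9.64% of all genes). In the same mice the median of the list was 0.96 in cDC2 over 26 genes and 0.99 in C1q-high macrophages over 30 genes, in comparisons that share no cells but share the mice.

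Levels of these genes varied among the mice. Isg15, a ubiquitin-like protein of the antiviral response, lay at 12.4, 9.87, 7.56 and 126 CPM in control mice and at 20.4, 422, 673 and 124 CPM in cKO mice. Control replicate 4 matched cKO replicate 8, cKO replicate 5 also lay within the control range, and the log2 fold change of 2.91 (SE 0.79) had an adjusted p of 0.726 in edgeR, or 4.61 and 0.00886 without control replicate 4. Irf7, the transcription factor that amplifies interferon production, lay at 42.0, 48.4, 52.9 and 132 CPM in control mice and at 122, 581, 772 and 99.0 CPM in cKO mice, so that replicates 5 and 8 again fell within the control range. Its log2 fold change of 2.32 fell to 0.58 without cKO replicate 6, and the adjusted p with all mice of the fit was 0.585 in edgeR.

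Oas1a and Oas1g encode oligoadenylate synthetases, which sense double-stranded RNA and activate RNase L, and neither passed the adjusted threshold. Neither overlapped between the groups, where 8.49% of all genes lay higher without overlap in the mice of the fit. Replicate 5 had only 3 cDC1. In the other cells Oas1a lay at 129 ± 14.4 CPM in control and 434 ± 100 CPM in cKO mice, and Oas1g at 112 ± 14.8 and 396 ± 87.0 CPM (SD, n = 4 each). The part of free RNA from these cells in the cDC1 levels was not tested. Oas1g lay at 3.11 to 15.1 CPM in control mice and at 40.8, 39.6, 164 and 74.3 CPM in cKO mice (log2 fold change 2.96, SE 0.58, adjusted p = 0.382 in edgeR), from 15 UMIs in control and 30 in cKO. Oas1a lay at 4.67 to 16.5 CPM and at 40.8, 33.0, 197 and 61.9 CPM (log2 fold change 2.51, adjusted p = 0.585 in edgeR). The 2 genes are neighbours of closely alike sequence, and their reads cannot be assigned with certainty. Oas2, Oas3, Oasl1 and Oasl2 were not among the genes tested. Isg15, Irf7, Oas1a, Oas1g and Xaf1 were named after their values were seen.

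Ifi205, a member of the Ifi200 family of DNA-binding proteins, was the most abundant of the list and lay at 1456, 1267, 1610 and 2058 CPM in control mice and at 1223, 2969, 4451 and 2272 CPM in cKO mice. Replicate 5, with 3 cells, was below the controls and the other cKO mice above them (log2 fold change 0.68, adjusted p = 0.850 in edgeR). Ly6e lay at 677 to 852 CPM and 836 to 1248 CPM (log2 fold change 0.59, adjusted p = 0.877 in edgeR). Ifi204 lay at 76.2, 78.0, 189 and 124 CPM against 265, 370, 493 and 260 CPM, without overlap, where 8.49% of all genes lay higher without overlap in the mice of the fit. The log2 fold change of Ifi204 was 1.56, with an adjusted p of 0.573 in edgeR. Irf1 and Cxcl10, which respond to interferon gamma, had log2 fold changes below 0 (-1.44 and -1.05, adjusted p = 0.946 for both in edgeR).

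**Figure D3:**
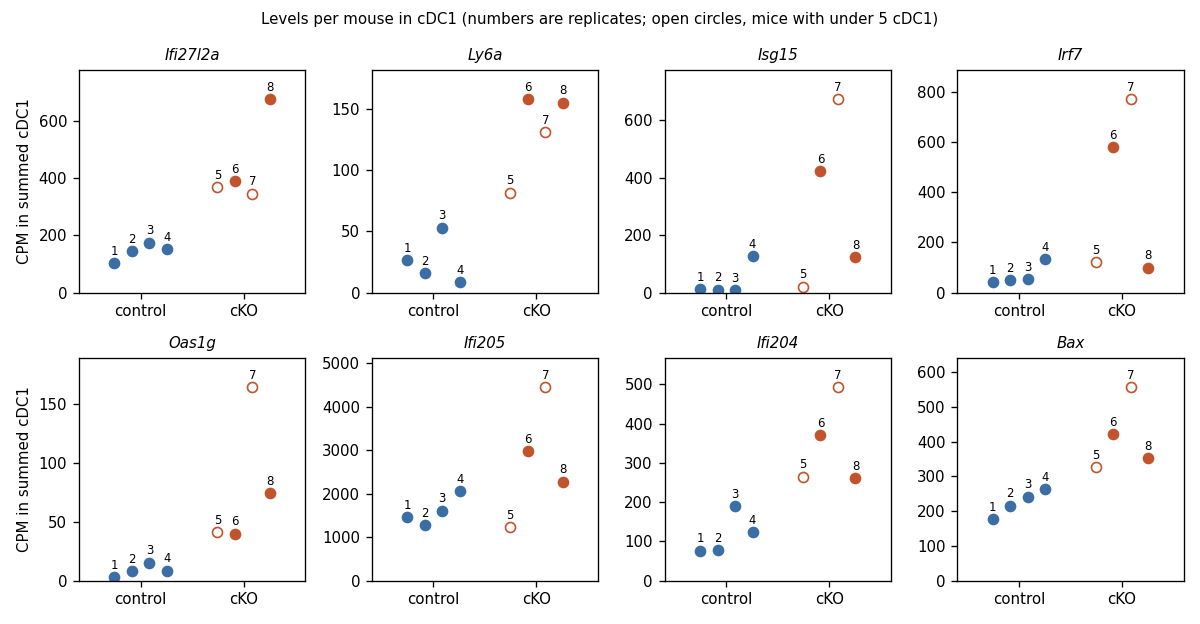
CPM of 8 genes in the summed cDC1 of each control (blue) and cKO (red) mouse, with the replicate number at each point and open circles for cKO replicates 5 and 7, which had under 5 cDC1 and were not in the fit. Ifi27l2a, Ly6a, Oas1g, Ifi204 and Bax do not overlap between the groups, while Isg15, Irf7 and Ifi205 do. Most of the 8 genes were chosen after their values were seen. In the mice of the fit, 8.49% of all 6620 genes lay higher and 9.64% lower without overlap.

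Other cell types' markers were read beside these genes. In the mice of the fit the monocyte markers, led by Plac8, Ccr2 and Ly6c2, summed to 507 to 918 CPM in control cDC1 and 904 to 1227 CPM in cKO cDC1 (up to 2562 CPM with the cKO mice outside the fit), the B and plasma cell markers to 15.1 to 171 CPM and 125 to 254 CPM, and the macrophage markers to 269 to 1246 CPM and 449 to 508 CPM. In the other cells of the same mice monocyte markers summed to 1966 to 3679 CPM in control and 7627 to 10585 CPM in cKO. The part of such transcripts in the interferon genes of cDC1 was not tested.

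The 250 bases before the start of 3 of these genes are shown because interferon-stimulated promoters are known for repeats of this kind. All 3 had log2 fold changes above 0 in cDC1, which does not set them apart, since 28 of 30 tested genes of the interferon list did. Ifi27l2a and Ly6a had no entry among the RefSeq promoters used and could not be shown. Sequences are from RefSeq on GRCm38.p6 and run 5′ to 3′ on the strand of the gene, with capitals for matches of GAAA, any 2 bases and GAAA again, searched on both strands, where matches may overlap. The Isg15 stretch is chr4:156200819-156201068 on the minus strand and holds 3 matches, the Oas1a stretch is chr5:120907526-120907775 on the minus strand with 2, and the Oas1g stretch is chr5:120887614-120887863 on the minus strand with 2.
Isg15: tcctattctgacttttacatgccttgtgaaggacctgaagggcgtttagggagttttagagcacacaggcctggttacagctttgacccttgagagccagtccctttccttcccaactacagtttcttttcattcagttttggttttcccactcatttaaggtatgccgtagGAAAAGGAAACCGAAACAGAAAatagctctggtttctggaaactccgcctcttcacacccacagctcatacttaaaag
Oas1a: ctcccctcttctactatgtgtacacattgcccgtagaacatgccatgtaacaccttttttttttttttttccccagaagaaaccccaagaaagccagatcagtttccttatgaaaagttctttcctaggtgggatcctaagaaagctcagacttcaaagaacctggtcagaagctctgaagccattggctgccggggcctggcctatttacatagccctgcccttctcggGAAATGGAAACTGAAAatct
Oas1g: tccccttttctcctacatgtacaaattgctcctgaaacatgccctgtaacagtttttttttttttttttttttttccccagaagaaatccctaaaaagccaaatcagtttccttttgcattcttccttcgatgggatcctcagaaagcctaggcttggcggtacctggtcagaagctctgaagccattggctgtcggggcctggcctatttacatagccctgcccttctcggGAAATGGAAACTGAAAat

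The motif was found in such a stretch of 936 of 27025 genes (3.46%) and of 20 of 38 genes of the interferon list with an entry (52.6%). The stretch of Oas1a and that of Oas1g carry the matches at nearly the same place, 20 and 18 bases before the start. A match is a description of these letters and not a site shown to be bound.

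The genes that give cDC1 their identity mostly had log2 fold changes below 0 in cKO members, and none passed the adjusted threshold. Of 26 listed genes, which include Xcr1 and Clec9a of the rule, 24 were tested. Of these, 7 had a log2 fold change above 0, where 47.8% of all genes did, here and for the lists that follow. The median was -0.26, against -0.02 over all genes tested. In the same mice the median of the list was -0.35 in cDC2 over 12 genes and -0.28 in C1q-high macrophages over 14 genes. Irf8 lay at 2220, 2340, 2034 and 2527 CPM in control and 1794, 1953, 3055 and 2055 CPM in cKO mice (log2 fold change -0.22, adjusted p = 0.946 in edgeR), and its partner Batf3 at 237 to 324 CPM and 61.2 to 312 CPM (log2 fold change -0.22, adjusted p = 0.980 in edgeR). Cadm1, an adhesion molecule of cDC1, had a log2 fold change of -0.71 (unadjusted p = 0.0278), with cKO replicates 6 and 8 below all control mice and replicates 5 and 7 at 122 and 164 CPM. Xcr1 and Clec9a had values of -0.46 and -0.73, which the rule bears on. Itgae, Flt3 and Id2, the repressor that dendritic cells need, had -0.22, -0.45 and -0.46, while Tlr3 (0.44) and Cst3 (0.15) were above 0.

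Genes of antigen presentation differed by small amounts, and none passed the adjusted threshold. Of 17 tested genes of MHC class I presentation, 13 had a log2 fold change above 0, where 47.8% of all genes did. The median of the list was 0.14, with 0.04 in cDC2 and 0.24 in C1q-high macrophages of the same mice. B2m, the light chain of class I, lay at 2381 to 3236 CPM in control mice and 3550 to 4074 CPM in cKO mice, without overlap. In the mice of the fit, 8.49% of all genes lay higher in cKO without overlap. The log2 fold change of B2m was 0.32 (unadjusted p = 0.0481, adjusted p = 0.939 in edgeR), against 0.68 in cDC2 and 0.58 in macrophages. H2-Q7, a class I gene with close copies that reads cannot always tell apart, lay at 56.0 to 75.6 CPM and 81.6 to 172 CPM (log2 fold change 1.05, unadjusted p = 0.00368 in edgeR). H2-D1 had 0.15. Of 14 tested genes of MHC class II presentation, 3 were above 0 and the median was -0.27, with H2-Ab1 at 13177 to 18749 CPM and 12926 to 16721 CPM and Cd74, the invariant chain, at 26648 to 29492 CPM and 26823 to 30281 CPM. Ctss, the protease that trims the invariant chain, had 0.41 and Ifi30, a thiol reductase of the same compartment, had -0.55 (unadjusted p = 0.0382 and 0.0131).

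**Figure D4:**
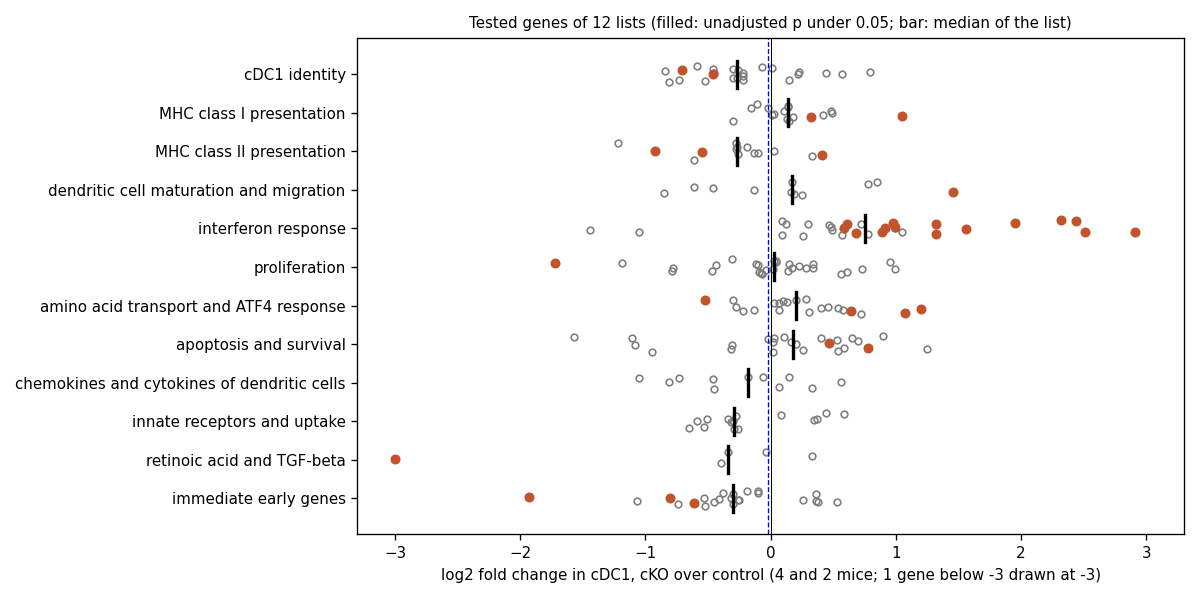
Log2 fold change of each tested gene of 12 lists in cDC1, cKO over control, from edgeR on 4 control and 2 cKO mice, with filled points for an unadjusted p under 0.05, bars for the median of a list and a dashed line for the median of all 6620 genes (-0.02). The interferon list has a median of 0.75 and the other lists lie between -0.34 and 0.20.

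Maturation, cytokine and receptor genes gave few values past even the unadjusted threshold. Of 24 genes of maturation and migration 11 were tested, with 7 above 0 and a median of 0.17. Cd83 and Cd86, a marker of maturation and a costimulatory ligand, had log2 fold changes of 0.16 and 0.17, and Marcksl1 had 1.46 (unadjusted p = 0.0353). Of 23 chemokines and cytokines 11 were tested, with 4 above 0, a median of -0.18 and 0 past the unadjusted threshold, where Il1b lay at 506 to 764 CPM in control and 383 to 681 CPM in cKO mice. Of 26 innate receptors and uptake genes 15 were tested, with 5 above 0, a median of -0.29 and again 0 past the unadjusted threshold, among them Unc93b1, which carries Toll-like receptors to endosomes (-0.28), and Fcer1g (0.35). Of 14 genes of retinoic acid and TGF-beta 5 were tested, with a median of -0.34, where Skil and Tgfb1 had -0.40 and 0.33. Tgfbr1 was at 0 in cKO replicates 6, 7 and 8 and at 7.56 to 19.7 CPM in control mice, while replicate 5 held 81.6 CPM. These values lie near the floor of counting. The cDC1 of cKO replicates 6, 7 and 8 gave 151552, 60881 and 161554 UMIs in all, where levels like those of the controls can give 0. Replicate 5 had 3 cells with 49048 UMIs.

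Genes of cell division, amino acid supply and cell death gave no adjusted call either. Of 29 tested proliferation genes 16 were above 0 and the median was 0.03. Mki67 lay at 37.8 to 49.4 CPM in control mice and 20.4, 19.8, 32.9 and 6.19 CPM in cKO mice, without overlap, from 91 and 7 UMIs (log2 fold change -1.72, unadjusted p = 0.00922, adjusted p = 0.925 in edgeR), while Tuba1b and Tubb5 had 0.03 and -0.44. Over all genes tested, 9.64% lay lower in cKO without overlap in the mice of the fit. Top2a overlapped, at 106, 164, 30.2 and 140 CPM in control mice and 183, 224, 98.6 and 6.19 CPM in cKO mice. Cells with both Mki67 and Top2a numbered 8 of 55, 18 of 80, 1 of 9 and 6 of 31 in control mice. In cKO mice they numbered 1 of 3, 1 of 12, 1 of 4 and 1 of 15, and these shares were not tested.

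Of 21 tested genes of amino acid transport and the ATF4 response, 16 were above 0 and the median was 0.20. The stress factor Ddit3 (CHOP) lay at 33.0 to 54.3 CPM in control and 65.7 to 224 CPM in cKO mice, without overlap (log2 fold change 1.07, unadjusted p = 0.0110), Phgdh and Mthfd2, enzymes of serine and folate metabolism, had 1.20 and 0.64, and Atf3 had -0.30. Slc7a5, a light chain that CD98 heavy chain carries to the surface, gave 14 UMIs in control and 8 in cKO cDC1 and was not tested. Of 24 tested genes of apoptosis and survival, 17 were above 0 and the median was 0.18. Bax, which opens the mitochondrial membrane, lay at 176, 216, 242 and 264 CPM in control and 326, 422, 558 and 353 CPM in cKO mice, without overlap (log2 fold change 0.78, SE 0.22, unadjusted p = 0.00411, adjusted p = 0.850 in edgeR). Cycs, cytochrome c, had 0.47 (unadjusted p = 0.0257 in edgeR) and Bcl2a1d 0.40. The genes named here were all above 0, while the list ran from -1.57 to 1.25. In the mice of the fit 5 genes of the list lay higher and 1 lower without overlap, where 8.49% and 9.64% of all genes did.

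Of 23 tested immediate early genes, which rise with tissue dissociation, 5 were above 0 and the median was -0.30. Fos lay at 2675, 2503, 3031 and 1445 CPM in control mice and 3242, 1465, 2152 and 1380 CPM in cKO mice, with overlap (log2 fold change -0.80, unadjusted p = 0.00920), and the heat shock gene Hspa1a at 1406 to 1878 CPM and 958 to 1873 CPM (-0.61, unadjusted p = 0.00362). None of these lists had a gene past the adjusted threshold. Of all genes, 2.60% were higher and 2.64% lower at an unadjusted p under 0.05.

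The last comparisons asked whether the difference between cKO and control mice in cDC1 was that of other classes in the same mice, by an interaction of class and condition with a term for each mouse. Against cDC2, edgeR called 6 of 7950 genes with a higher (0.0755%) and 7 with a lower (0.0881%) log2 fold change in cDC1, 13 in all (0.164%). Against C1q-high macrophages it called 3 of 9523 higher (0.0315%) and 7 lower (0.0735%), 10 in all (0.105%). DESeq2 called 0 in both, with 162 and 163 genes at an unadjusted p under 0.05 against 462 and 582 in edgeR. The same 4 control mice and cKO replicates 6 and 8 entered, and values without replicate 8 are given where it decided a call.

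Ifitm3, an interferon-induced membrane protein that blocks viral entry, held its call without each mouse in turn. It lay at 401, 261, 764 and 651 CPM in control cDC1 and at 1181 and 1393 CPM in cKO replicates 6 and 8. In cDC2, with only 7 and 13 cells in cKO replicates 6 and 8, it lay at 3314, 2837, 4239 and 3961 CPM and at 4904 and 3797 CPM. The means of these mice were 519 CPM in control and 1287 CPM in cKO cDC1, and 3588 and 4350 CPM in cDC2. In the other cells Ifitm3 lay at 2093 ± 579 CPM in control and 4178 ± 917 CPM in cKO mice (SD, n = 4 each). The part of free RNA from these cells in the level of either class was not tested. The log2 fold change was 1.32 in cDC1 and 0.23 in cDC2, and their difference of 1.21 in the joint fit (SE 0.19, adjusted p = 1.40e-07 in edgeR, not called by DESeq2) lay between 1.06 and 1.42 without each mouse in turn.

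Ifitm1, its neighbour on chromosome 7, rested on 1 mouse. In cDC1 it lay at 57.6, 14.8, 30.2 and 90.7 CPM in control mice, at 19.8 CPM in cKO replicate 6 and at 458 CPM in replicate 8, and in cDC2 at 1310, 1533, 1514 and 3529 CPM, then 2041 and 444 CPM. The difference of 3.34 (adjusted p = 6.14e-24 in edgeR, unadjusted p = 0.158 in DESeq2) became -1.04 without cKO replicate 8. Ifi211, which is close in sequence to Ifi205, had -1.29 (adjusted p = 2.24e-04 in edgeR) and 0.76 without the same mouse. It lay at 1327, 1182, 1557 and 1805 CPM in control cDC1 and 2870 and 2204 CPM in cKO cDC1, against 154, 233, 223 and 122 CPM and 235 and 1144 CPM in cDC2.

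The chemokine Ccl4 lay at 269, 187, 597 and 566 CPM in control cDC1 and 442 and 322 CPM in cKO cDC1, all within 1 range. In cDC2 it lay at 472, 307, 207 and 484 CPM in control and 938 and 2042 CPM in cKO mice, and the difference was -1.77 (adjusted p = 1.09e-07 in edgeR), or -0.70 and 0.833 without cKO replicate 8. Lyz1, a lysozyme, lay at 182, 174, 106 and 113 CPM in control cDC1 and 92.4 and 92.8 CPM in cKO cDC1, against 293, 229, 191 and 104 CPM and 704 and 444 CPM in cDC2. Its difference was -2.10 (adjusted p = 1.58e-04 in edgeR), or -1.86 and 0.0886 without cKO replicate 6. Lyz1 reached 1580 to 6970 CPM in macrophages, and the part of their free RNA in both classes was not tested.

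**Figure D5:**
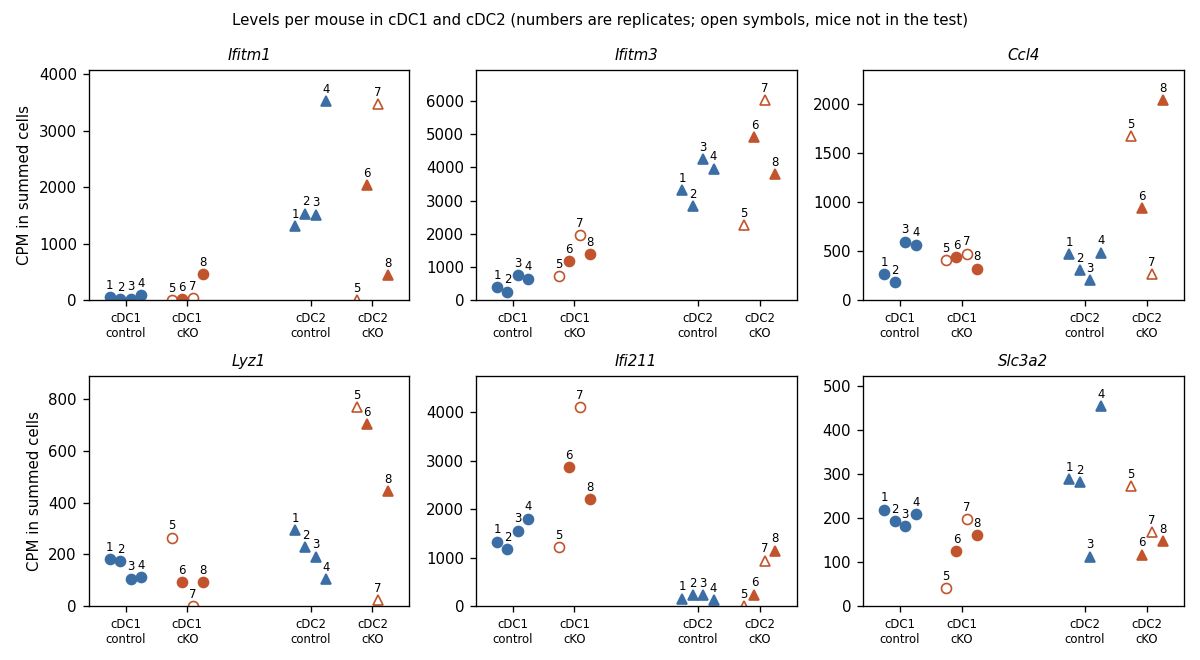
CPM of 6 genes in the summed cDC1 (circles) and cDC2 (triangles) of each control (blue) and cKO (red) mouse, with the replicate number at each point and open symbols for cKO replicates 5 and 7, which were not in the test. Ifitm3 is above control in cKO replicates 6 and 8 in cDC1 but not in both in cDC2, and for Ifitm1 cKO replicate 8 alone is high in cDC1.

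Against macrophages, the genes called with the smallest p mostly had a smaller log2 fold change in cDC1 than in macrophages, with 0.13 and 0.99 for Tmsb10, -0.32 and 2.13 for Klrk1, 0.57 and 1.52 for Plac8 and 0.63 and 2.10 for Phf11a, none of which passed the adjusted threshold within a class. Tmsb10, an actin-binding peptide, lay at 7126 to 10130 CPM in control cDC1 and 9403 and 10603 CPM in cKO replicates 6 and 8, against 548 to 766 CPM and 1063 and 1527 CPM in macrophages (difference -0.92, adjusted p = 0.00144 in edgeR). Klrk1, which encodes the receptor NKG2D, lay at 162 to 247 CPM and 191 and 130 CPM in cDC1 and at 5.68 to 18.2 CPM and 34.1 and 38.2 CPM in macrophages (difference -2.60, adjusted p = 4.63e-04 in edgeR). Plac8 (-1.36) and Phf11a (-1.61) were of the same kind, and Ier2, an immediate early gene, had 1.20. Without cKO replicate 8 none of these 5 passed the threshold, with adjusted p between 0.201 and 0.749 in edgeR, while the difference was -2.30 for Klrk1, -0.80 for Tmsb10, -1.09 for Phf11a, 0.77 for Ier2 and -0.68 for Plac8.

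No interaction was called for Slc3a2. Its log2 fold change was -0.52 in cDC1, -1.15 in cDC2 (adjusted p = 0.649) and -0.30 in macrophages (adjusted p = 0.848), and the differences were 0.70 (SE 0.44, adjusted p = 0.929) and -0.37 (SE 0.32, adjusted p = 0.927), all in edgeR. Ifi27l2a had log2 fold changes of 1.91, 1.49 and 2.20 in cDC1, cDC2 and macrophages (adjusted p = 0.0473, 0.0519 and 0.00225 in edgeR), and neither difference passed the threshold (0.49, SE 0.26, and -0.43, SE 0.24, with adjusted p = 0.891 and 0.863 in edgeR).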

How the data were processed

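Single cells of the 8 mice were captured with a 3′ kit, and the authors deposited whole-number UMI counts of every gene in every cell, without normalization, which Cell Ranger had made from alignments to mm10 plus an EYFP sequence (STAR 2.5.3a and R 3.5.0 are named in the submitters' processing notes). The mouse of each cell was read from the end of its column name. Cells with at least 631 UMIs, 399 genes, at most 5% mitochondrial UMIs and no hemoglobin UMI were kept, as in the study. Free RNA was not removed and Scrublet calls were kept (scanpy 1.11.5). The cells kept gave 497531 to 3762314 UMIs per mouse, and the cDC1 49048 to 1013422.

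The members, the gene lists and the markers were chosen with earlier results of these data known. Counts were summed per mouse and tested with edgeR 4.0.16 (TMM, quasi-likelihood, R 4.3.3) in mice with at least 5 cells, for genes over 1 CPM in at least 3 sums and with a UMI in at least 20 cells, with Benjamini-Hochberg adjustment over all genes tested. DESeq2 1.42.0 was an alternative. Single values per mouse were compared by two-sided exact permutation tests (scipy 1.17.1). Every mouse was taken as a separate animal. Genes named are the given markers and gate genes, the 10 leading genes, the genes called, the 2 most abundant of each list, and the 5 with the smallest p per interaction. Every other gene named with a value for cKO against control, such as Bax, Ddit3, Ifi204, Mki67, Cadm1, H2-Q7 and Tgfbr1, was chosen after its value was seen. The fit was tested on simulated data and recovered 172 of 200 genes changed 4-fold in cDC1 with 8 wrong calls (6620 genes). In the interactions with cDC2 (7950 genes) and macrophages (9523 genes) it recovered 65 and 72 of 200, with 2 and 0 wrong calls. With no gene changed, the wrong calls were 0, 1 and 1. The changed genes were drawn from those with many UMIs, and every gene had the same coefficient of variation between mice (0.196). The recovery therefore does not carry over to genes with few UMIs, such as Oas1g. Gene positions are from GENCODE vM21 on GRCm38, and 88 of 16889 genes had no symbol.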

Additional observations from a re-analysis of the deposited data

Results flagged for a closer look

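Within groups, 5 of 59 sets of 4 mice had 1 value far from the others, where chance gives about 1 in 20. cDC1 made up 0.826% of the cells of cKO replicate 7, where the other cKO mice lay at 3.44 to 3.61%. In control replicate 3, which had 9 cDC1, Unc93b1 lay at 370 CPM and Plac8 at 333 CPM, below the other control mice (483 to 490 and 664 to 698 CPM). In control replicate 4, Isg15 lay at 126 CPM and Irf7 at 132 CPM, above the other control mice (7.56 to 12.4 and 42.0 to 52.9 CPM).

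Between classes of cells, the log2 fold change of cKO over control in cDC1 minus that in cDC2 was 3.34 for Ifitm1, -1.77 for Ccl4, 1.21 for Ifitm3, -2.10 for Lyz1 and -1.29 for Ifi211. Minus that in C1q-high macrophages it was -1.36 for Plac8, -2.60 for Klrk1, -0.92 for Tmsb10, 1.20 for Ier2 and -1.61 for Phf11a. All were called by edgeR and none by DESeq2.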

How the results depend on the processing

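The difference in the share of cDC1 was below 0 in every alternative. It lay between -8.51 and -5.11 percentage points without each mouse in turn, with an exact permutation p of 0.0286 wherever a control mouse was left out and 0.0571 wherever a cKO mouse was. It was -1.66 among cDC1 and cDC2 only (exact permutation p = 0.943), and -7.12 without control replicate 3 and cKO replicate 5, which had under 100 cells kept (p = 0.100, an alternative added after seeing the data). Genes called in cDC1 were 0 to 3 higher without each mouse in turn (0 lower), 2 with DESeq2, 10 higher and 1 lower by the likelihood ratio test, 21 and 6 with no filter on low counts, 3 and 1 with at least 1 UMI of Xcr1 and Clec9a, 2 with at least 3, 3 with at least 10 cells per mouse, 6 in all 8 mice with at least 3 cells (added after seeing the data), and 0 with RLE size factors, filterByExpr, under 30 C1q UMIs per 10000 or Scrublet calls left out. At least 20 cells per mouse left no cKO mouse, so that no value could be had. In the interaction with cDC2, 3 to 20 genes were higher and 4 to 8 lower without each mouse in turn, 0 and 0 with DESeq2, and 22 and 2 with at least 2 cells of both classes (added after seeing the data). In that with macrophages, 2 to 4 were higher and 2 to 27 lower, 0 and 0 with DESeq2, 3 lower with no filter, and 1 and 14 with at least 2 cells. Without each mouse in turn, Ifitm1 lay between -1.04 and 5.40 and Ifi211 between -2.17 and 0.76, the turned values being those without cKO replicate 8. The cause of these changes was not tested. A fit without cKO replicate 6 or 8 leaves 1 cKO mouse, which is assumed to vary like the controls. No paired analysis was possible because the groups share no replicate number.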
